A study of Mus musculus with 209 samples.

Results

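Histones package DNA, and besides the histones made for replication cells hold variants that are put into chromatin at any time. The transcripts described here are those of 8 mouse genes for such proteins, found by their symbols in the count tables: the linker histones H1foo and H1f0, the H2A variants H2afz, H2afv, H2afx and H2afy, and the H3.3 genes H3f3a and H3f3b. All 8 symbols had a row among the 24450 gene rows of the oocyte and 2-cell table, and in both epiblast tables.

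RNA was measured in 50 single mouse cells or embryos by single-cell RNA-seq and in 4 bulk epiblast samples. The groups were 9 KO and 8 WT 2-cell samples, 19 KO and 14 WT MII oocytes, and 2 samples each of IVC epiblast and E6.5 epiblast. MII oocytes are ovulated eggs, 2-cell embryos have divided once after fertilization, and the epiblast is the layer that forms the body of the embryo. The series, titled for DNA hydroxymethylation and methylation in embryos and the germline, also holds methylation assays that were not analysed here. The label of the KO samples, N14 maternal KO, is taken to mean loss of Nlrp14 from the egg; the labels give neither the construct nor the genotype of the father. Females of C57BL/6 strain aged 6 to 8 weeks were superovulated with PMSG and hCG, oocytes were taken 14 to 15 hours after hCG, 2-cell embryos after 42 to 43 hours, and the mates were C57BL/6 or PWK males; the labels do not say which for these samples. All epiblast samples are WT from C57BL/6 parents; E6.5 samples carry the further label ND, whose meaning is not given, and the labels used here do not say how the IVC samples were cultured.

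Linker histones bind nucleosomes where DNA enters and leaves and help chromatin fold. The egg carries its own form, H1foo, which is known to be exchanged for somatic linker histones after fertilization. H2A.Z, encoded by H2afz and H2afv, sits at promoters and enhancers; H3.3, encoded by H3f3a and H3f3b as an identical protein, is deposited outside replication, including into sperm chromatin after fertilization; H2A.X, from H2afx, is phosphorylated at DNA breaks; and macroH2A, from H2afy, is linked to silent chromatin.

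RefSeq (GRCm38.p6) entries matched all 8 symbols, 5 of them through older names, and gave a promoter window for 7; H2afx had none in the table used. The 250 bases before the annotated start are shown for the genes the results below turn on, 5′ to 3′ on the strand of the gene, with capitals marking CCAAT or its reverse complement ATTGG, the box bound by the factor NF-Y.
H1foo, chr6:115944681-115944930, plus strand: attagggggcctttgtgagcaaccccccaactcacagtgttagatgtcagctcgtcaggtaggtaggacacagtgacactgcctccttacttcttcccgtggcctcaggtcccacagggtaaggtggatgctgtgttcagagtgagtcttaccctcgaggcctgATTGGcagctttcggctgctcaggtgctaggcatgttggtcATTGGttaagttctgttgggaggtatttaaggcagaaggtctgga
H2afz, chr3:137864237-137864486, plus strand: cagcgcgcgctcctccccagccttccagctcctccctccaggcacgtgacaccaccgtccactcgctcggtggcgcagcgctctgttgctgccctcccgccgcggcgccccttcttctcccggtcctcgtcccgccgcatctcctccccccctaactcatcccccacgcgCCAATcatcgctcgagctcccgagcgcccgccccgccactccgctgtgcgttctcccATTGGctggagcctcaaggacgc
H2afv, chr11:6444444-6444693, minus strand: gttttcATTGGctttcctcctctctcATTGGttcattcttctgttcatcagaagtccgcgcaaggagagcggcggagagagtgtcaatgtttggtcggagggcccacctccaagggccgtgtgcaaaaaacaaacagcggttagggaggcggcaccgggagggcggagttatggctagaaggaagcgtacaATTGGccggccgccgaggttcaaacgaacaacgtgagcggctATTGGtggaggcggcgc
H3f3a, chr1:180813606-180813855, minus strand: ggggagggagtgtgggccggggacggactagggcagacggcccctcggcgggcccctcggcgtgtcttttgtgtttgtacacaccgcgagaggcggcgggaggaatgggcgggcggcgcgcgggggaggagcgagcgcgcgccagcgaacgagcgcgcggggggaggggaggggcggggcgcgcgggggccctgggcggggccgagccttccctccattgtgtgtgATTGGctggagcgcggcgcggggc
H3f3b, chr11:116024505-116024754, minus strand: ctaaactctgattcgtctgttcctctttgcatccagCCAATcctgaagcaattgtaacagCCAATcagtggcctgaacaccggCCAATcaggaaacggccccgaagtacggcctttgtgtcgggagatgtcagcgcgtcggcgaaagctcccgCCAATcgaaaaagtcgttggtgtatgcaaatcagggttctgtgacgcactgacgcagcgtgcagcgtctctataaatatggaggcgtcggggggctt
The motifs were picked after the windows had been read, and a match describes letters only. Counted on both strands, with overlapping matches counted separately, CCAAT occurred 4 times each in the windows of H2afv and H3f3b, 2 times each in those of H1foo and H2afz, once in that of H3f3a, and not in those of H1f0 and H2afy. Of 32851 windows of the same length, 33.8% held at least 1 such match and 0.840% held at least 4. TATAAA on either strand was found in the H3f3b window alone among the 7, against 12.4% of all windows. GGGCGG on either strand had 4 matches in H3f3a, 2 in H2afy, 1 each in H2afz and H2afv and none in H1foo, H1f0 and H3f3b, against at least 1 in 32.7% of all windows. The windows of H3f3a and H3f3b, which encode the same protein, were 77.2% and 54.0% G and C, beside a median of 52.4% over all windows.

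Total counts ran from 2704050 to 15007301 in KO and 3788348 to 10303580 in WT 2-cell libraries, and from 4585916 to 10637866 in KO and 3933604 to 13052327 in WT oocytes. In the epiblast, IVC libraries totalled 10377163 and 10241401 counts, while those of E6.5 embryos totalled 11826853 and 24047088. Nlrp14 lay lower in every KO than in every WT library of the same stage, with 63.7 CPM (a gene's share of all counts, scaled to 1000000) in pooled KO and 260 CPM in pooled WT 2-cell samples, and 36.7 CPM in KO and 726 CPM in WT oocytes. All 12 oocyte markers had counts in the oocyte and 2-cell groups, and 10 of 12 listed 2-cell markers were in the table and had counts in both 2-cell groups; their sum was at most 12.1 CPM in any oocyte. The oocyte libraries fell into sets that are not groups of the study: 7 KO and 10 WT libraries held ERCC spike-in RNA above 0.01% of counts, 10 KO and 3 WT held less of it and under 1% of the ribosomal transcript Rn45s (called low-rRNA here), and 2 KO and 1 WT held less spike-in RNA with 1.78 to 2.38% Rn45s. Every 2-cell library was a spike-in library. WT 2-cell replicate 8 stood apart from the other 7 WT 2-cell libraries, with 4.00% of its allele-assigned counts paternal, against 9.03 to 24.7% in the others. Since each of these libraries is 1 cell or embryo whose animal is not named, a group counts as 1 sample: ratios are of summed counts, their intervals at 95% cover counting error only, and no test was made between these groups.

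In 2-cell samples, H1foo was higher in KO and the 2 H2A.Z genes were lower in KO, while the other members lay within 2-fold. Of all genes that reached 10 CPM in one pool or the other, 5.96% stood 2-fold or further above WT in KO and 31.6% stood 2-fold or further below, with a median log2 ratio of -0.35. Of the 8 members 7 reached that level, 1 of them being 2-fold higher and 2 being 2-fold lower. H2afy, at 3.74 CPM in pooled KO and 5.72 CPM in pooled WT, did not reach it. No member was free of overlap between the genotypes, against 0.333% of genes higher and 1.37% lower without overlap.

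H1foo, the linker histone of the egg, had 874, 2679 and 12127 CPM (lowest, median and highest of 9) in KO 2-cell samples, against 69.8, 112 and 1786 CPM (of 8) in WT 2-cell samples. The WT value of 1786 CPM is that of replicate 8; the other 7 WT libraries ended at 174 CPM, below every KO library. The pooled levels were 5479 CPM in KO and 514 CPM in WT, a log2 ratio of 3.42 (3.40 to 3.43). It was 5.63 (5.58 to 5.67) without WT replicate 8 and 2.71 (2.69 to 2.74) without KO replicate 4, the library with 12127 CPM, so that 1 library in each group moved the size but not the direction. The summed oocyte markers moved with it: they ran from 5528 to 18943 CPM in KO and from 3892 to 10239 CPM in WT, with the highest values in KO replicate 4 and WT replicate 8. Their part in the H1foo difference was not tested.

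H2afz had 108, 185 and 1040 CPM in KO 2-cell samples, against 260, 802 and 1609 CPM in WT 2-cell samples. KO replicate 3, at 1040 CPM, lay inside the WT range, and 6 of 9 KO libraries lay below every WT library. The log2 ratio of pooled CPM was -1.89 (-1.91 to -1.86). H2afv had 16.8, 27.4 and 64.6 CPM in KO, against 59.5, 280 and 344 CPM in WT, a log2 ratio of -2.86 (-2.93 to -2.79). The value of 59.5 CPM is again WT replicate 8, and 8 of 9 KO libraries lay below all WT ones. Without that library the log2 ratios were -2.17 for H2afz and -3.17 for H2afv, and in that setting 11.3% of genes stood 2-fold above WT and 36.9% stood 2-fold below. The summed 2-cell markers ran from 288 to 2927 CPM in KO and from 800.5 to 1824 CPM in WT, and their part in the H2A.Z differences was not tested.

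Among the H3.3 genes, H3f3a had 232, 308 and 380 CPM in KO 2-cell samples, against 356, 547 and 667 CPM in WT 2-cell samples. Here too 8 of 9 KO libraries were below every WT library, but the log2 ratio of -0.68 (-0.71 to -0.65) was within 2-fold. H3f3b had 4566, 6035 and 8014 CPM in KO and 3941, 4878 and 6058 CPM in WT, with a log2 ratio of 0.16 (0.16 to 0.17). The 2 genes for the same protein thus lay on opposite sides of 0 in pooled counts. They kept those signs under TMM scaling (-0.40 for H3f3a and 0.45 for H3f3b), DESeq2 size factors (-0.62 and 0.22) and without WT replicate 8. All these scalings use gene counts, and scaling to the ERCC spike-in was not tried. ERCC took 0.0478 to 0.0957% of counts in KO and 0.0583 to 0.135% in WT 2-cell libraries.

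H1f0, the linker histone known to build up in differentiated cells, had 38.4, 60.6 and 71.5 CPM in KO and 17.1, 51.5 and 78.1 CPM in WT 2-cell samples, a log2 ratio of 0.33 (0.25 to 0.41) that was 0.06 without WT replicate 8. H2afx had 18.4, 24.5 and 52.1 CPM in KO and 18.5, 29.9 and 45.8 CPM in WT, a log2 ratio of -0.05 (-0.15 to 0.04) that turned positive under TMM scaling (0.23), under DESeq2 size factors (0.01) and without WT replicate 8 (0.11). The genotypes overlapped widely for both genes, while their pooled paternal shares, given further on, differed.

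**Figure D1:**
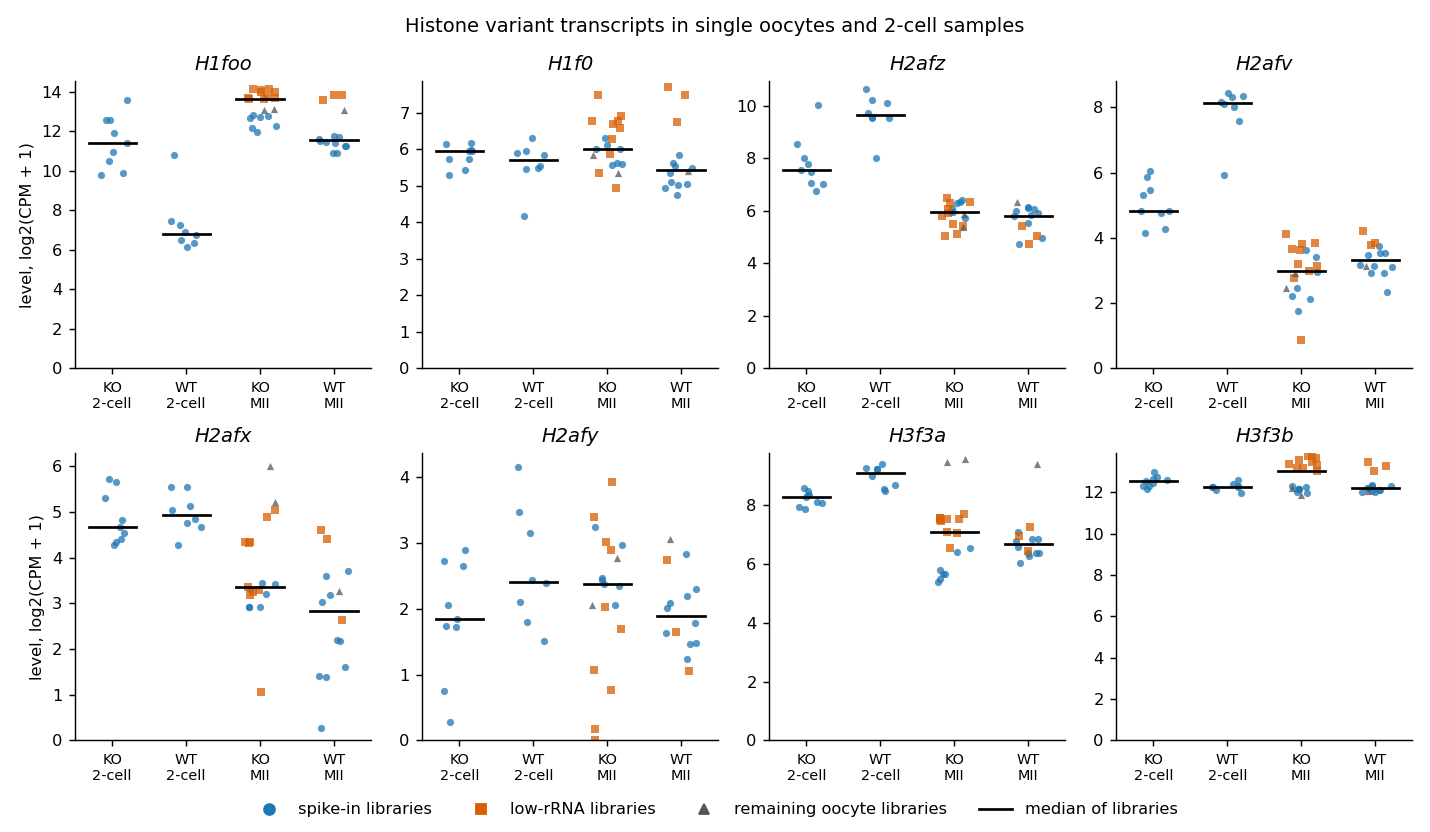
Level of each member as log2(CPM + 1) in every oocyte and 2-cell library, with KO left of WT in each stage; symbols mark the library set and bars the median of the libraries. The H1foo levels of 7 WT 2-cell libraries lie below all KO ones, H2afz and H2afv lie higher at the 2-cell stage than in oocytes, and H3f3a is highest among oocytes in the 3 remaining libraries.

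Within the 2-cell samples, libraries with more H1foo had less of the H2A.Z genes. Spearman's rho between H1foo and H2afz was -0.78 over the 9 KO libraries and -0.71 over the 8 WT libraries; between H1foo and H2afv it was -0.77 in KO and -0.52 in WT. H2afz and H2afv ran together, at 0.85 in KO and 0.76 in WT. The share of all allele-assigned counts that were paternal depends on maternal counts, stored egg RNA among them, as well as on paternal ones. It includes the counts of these genes. This share correlated with H2afv at 0.97 in KO and 0.83 in WT, with H2afz at 0.83 in KO and 0.86 in WT, and with H1foo at -0.77 in KO and -0.55 in WT. These are descriptions over 9 and 8 single libraries, which share their CPM scaling within each library, and no p is given. Replicate 8 is the extreme WT point in each.

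**Figure D2:**
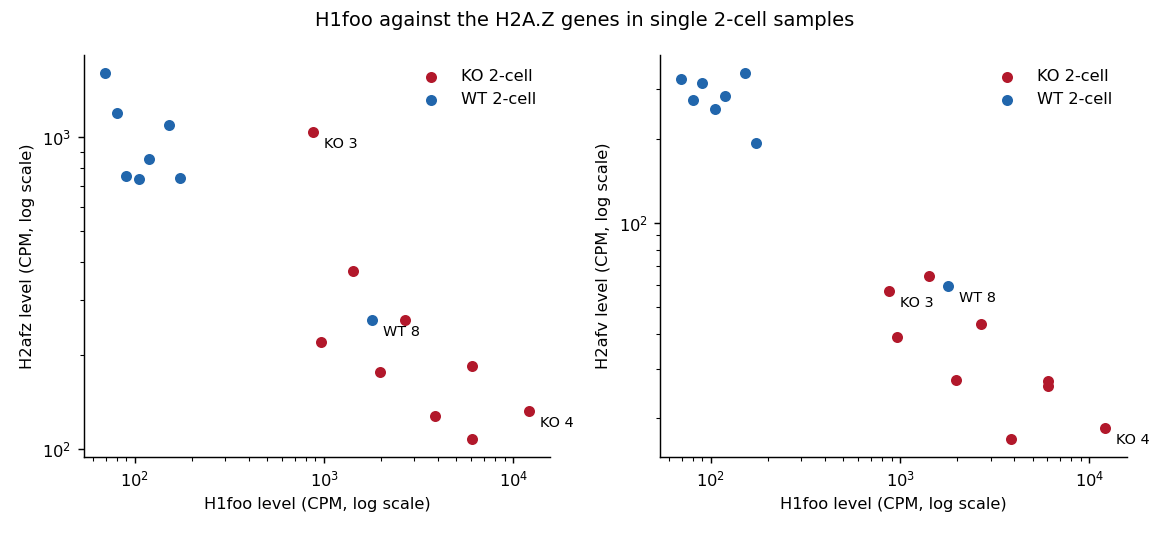
H2afz (left) and H2afv (right) against H1foo in each 2-cell library, both axes in CPM on a log scale, KO in red and WT in blue. WT replicate 8, at 1786 CPM of H1foo, lies among the KO libraries in both panels, and KO replicate 3 has the lowest H1foo of the KO group (874 CPM) and its highest H2afz (1040 CPM).

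The allele tables split 2-cell counts into maternal and paternal, while the oocyte columns are not split. Such a split needs a father of another strain than the C57BL/6 mothers. Of the mates named that would be PWK, which the labels do not state for these samples. Paternal counts, where reads are assigned rightly, come from the embryo's copy or from sperm, whereas maternal counts can be stored egg RNA or new RNA from the maternal copy, which cannot be told apart. Over all genes the pooled paternal share was 2.79% in KO and 14.6% in WT, and over the oocyte markers, which serve as the level in stored RNA, 0.171% in KO and 0.754% in WT. Single oocyte markers went higher, up to 30.5% for Figla in KO and 26.1% for Padi6 in WT, and those shares are listed with no reading. Among genes with 50 or more allele-assigned counts, 30.7% in KO and 65.9% in WT had a paternal share of 10% or more. Members that did so were 2 of 7 with enough counts in KO and 4 of 6 in WT.

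H2afz had the highest paternal share among the members with enough counts in both genotypes. It was 34.1% in KO (1306 of 3834 counts, 32.6 to 35.6% by Clopper-Pearson) and 61.8% in WT (7847 of 12692 counts, 61.0 to 62.7%). Single libraries ran from 12.7 to 52.5% in KO, with a median of 30.9%, and from 40.4 to 70.6% in WT, with a median of 61.6%, so that the groups overlapped. Counts assigned to an allele were 27.7% of H2afz counts in KO and 36.1% in WT. Among them paternal H2afz made up 20.9 CPM in KO and 183 CPM in WT, and maternal H2afz 40.5 in KO and 113 in WT. Both alleles were thus lower in KO in assigned counts. Such CPM leave out counts assigned to neither allele, so they lie under the level of the gene.

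H2afv had a share of 25.2% in KO (268 of 1063 counts, 22.6 to 27.9%), against 46.7% in WT (2603 of 5570 counts, 45.4 to 48.1%). Its libraries ran from 1.20 to 39.5% in KO and from 33.0 to 52.3% in WT. KO replicates 4 and 9, with the lowest shares of 1.20% and 3.70%, also had the lowest H2afv levels of the KO group, at 18.4 and 16.8 CPM. Counts assigned to an allele were 53.7% of H2afv counts in KO and 56.2% in WT. Among them paternal H2afv stood at 4.30 CPM in KO and 60.7 in WT, and maternal H2afv at 12.7 in KO and 69.2 in WT.

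H2afx and H1f0 showed a paternal allele in WT with little or none of it in KO, although their total levels lay within 2-fold. A lower share in KO is not particular to them, since over all genes it was 2.79% in KO and 14.6% in WT. For H2afx the share was 0.253% in KO (2 of 790 counts, 0.0307 to 0.911%), against 23.5% in WT (123 of 524 counts, 19.9 to 27.3%). Only KO replicate 3 held paternal H2afx counts, and 7 of 8 WT libraries lay between 14.7 and 53.8%, with replicate 8 at 1.82%. For H1f0 the share was 2.95% in KO (44 of 1490 counts, 2.15 to 3.94%, and 1.64% without replicate 8), against 31.7% in WT (198 of 625 counts, 28.0 to 35.5%). Its libraries ran from 0 to 15.1% in KO, with a median of 1.81%, and from 6.41 to 61.8% in WT, with a median of 38.7%, the lowest being replicate 8. The assigned maternal counts ran the other way, with 12.6 CPM in KO and 9.36 in WT for H2afx, and 23.2 in KO and 9.96 in WT for H1f0. Of H2afx counts 38.6% in KO and 35.9% in WT were assigned to an allele, and of H1f0 counts 41.2% in KO and 31.5% in WT.

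H1foo was maternal in both genotypes, with a paternal share of 0.0215% in KO (57 of 265106 counts) and 0.0411% in WT (7 of 17021 counts), under the level of the oocyte markers. Without replicate 8 the WT share was 0.109%. The H3.3 genes could hardly be split: 0.221% of H3f3b counts in KO and 0.217% in WT were assigned to an allele. Their paternal part was 25 of 762 counts in KO, from replicates 1, 6 and 8 alone (3.28%, and 1.75% without replicate 8), and 0 of 459 counts in WT, where counting error allows up to 0.800%. H3f3a had 24 allele-assigned counts in KO and 45 in WT, and H2afy 54 in KO, none of them paternal, and 14 in WT, which is too few in all but the KO value of H2afy for a share by the minimum used.

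**Figure D3:**
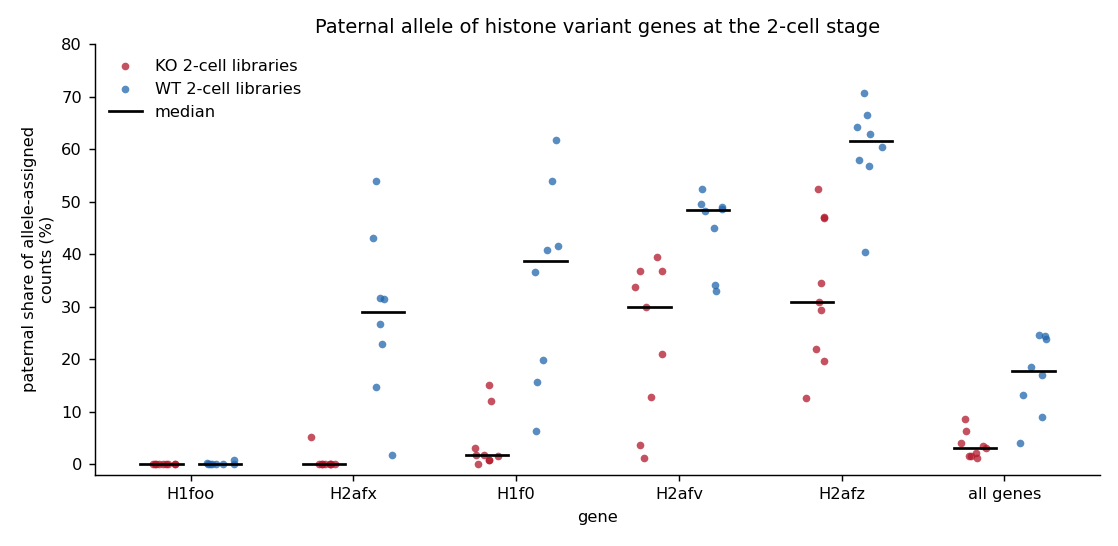
Paternal share (%) of allele-assigned counts in each 2-cell library with at least 10 such counts for the gene, KO left of WT, for 5 members and for all genes together; bars are medians. H2afx and H1f0 lie near 0 in most KO libraries and between 14.7 and 61.8% in the WT libraries other than replicate 8, while H2afv and H2afz reach 39.5% and 52.5% in KO.

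Between oocyte genotypes no member was 2-fold apart in pooled counts, where 2.04% of all genes reaching 10 CPM stood 2-fold above WT in KO and 2.39% stood 2-fold below. The library sets bore on these ratios. H1foo had 3971, 12483 and 17967 CPM (lowest, median, highest of 19) in KO oocytes, against 1881, 2971 and 14620 CPM (of 14) in WT oocytes, with a log2 ratio of 0.73 (0.72 to 0.73) in pooled counts and of 2.07 between the medians of libraries. Within spike-in libraries the 7 KO libraries, at 3971 to 7101 CPM, lay above all 10 WT libraries, at 1881 to 3445 CPM, and the log2 ratio was 1.13 (1.12 to 1.14); in that set 9.41% of genes stood 2-fold above WT, 3.69% stood 2-fold below, and 7.07% lay higher without overlap. Within low-rRNA libraries the ranges overlapped, at 12483 to 17967 CPM in KO and 12042 to 14620 CPM in WT, with a log2 ratio of 0.15 (0.14 to 0.15), where 1.98% of genes stood 2-fold above WT and 2.03% stood 2-fold below. In the remaining 3 libraries it was 0.04, with 8552 and 8874 CPM in KO and 8475 CPM in WT. The KO group has more low-rRNA libraries (10 of 19) than the WT group (3 of 14), so the pooled value mixes the sets in different parts.

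H3f3b lay higher in low-rRNA than in spike-in libraries in both genotypes. It had 3937 to 5039 CPM in KO and 4099 to 5186 CPM in WT spike-in libraries, with a log2 ratio of -0.02, and 8454 to 14172 CPM in KO and 8344 to 11061 CPM in WT low-rRNA libraries, with a log2 ratio of 0.18. The pooled log2 ratio of 0.36 (0.36 to 0.37) exceeded both. H3f3a changed sign between the sets: -0.69 (-0.76 to -0.63) in spike-in libraries, with 40.8 to 91.2 CPM in KO and 63.8 to 133 CPM in WT, and 0.43 (0.37 to 0.48) in low-rRNA libraries, with 90.6 to 205 CPM in KO and 85.6 to 152 CPM in WT. In the 3 remaining libraries H3f3a had 702 and 748 CPM in KO and 668 CPM in WT, all above the other 30 oocytes, which ended at 205 CPM. Over all libraries the log2 ratio was 0.09 (0.06 to 0.12), and 0.64 without the 1 WT library of that set.

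The other members were also uneven between sets. H1f0 had a log2 ratio of -0.01 (-0.05 to 0.03) over all libraries, 0.57 in spike-in and -0.76 in low-rRNA libraries, with 29.5 to 180 CPM in KO and 25.8 to 207 CPM in WT. H2afz had 32.2 to 89.9 CPM in KO and 26.0 to 80.2 CPM in WT and a log2 ratio of 0.28 (0.23 to 0.33), with 0.32 and 0.79 in the same sets and -0.68 in the remaining libraries. H2afv, at 0.814 to 16.3 CPM in KO and 4.05 to 17.6 CPM in WT, had a log2 ratio of -0.41 (-0.53 to -0.29), negative in each set; it reached 10 CPM in the WT pool alone. H2afx, at 1.09 to 63.2 CPM in KO and 0.215 to 23.2 CPM in WT, reached 10 CPM in the KO pool alone and had a log2 ratio of 0.77 (0.66 to 0.88) over all libraries and -0.01 in low-rRNA libraries. It was 2.50 in the remaining set, where 2 KO oocytes had 36.0 and 63.2 CPM and the WT oocyte 8.59 CPM, and 1.10 without WT replicate 2. H2afy, at 4.87 CPM in pooled KO and 3.40 CPM in pooled WT, was under 10 CPM.

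At the 2-cell stage the linker histone of the egg was lower, and the H2A.Z genes were higher, than in oocytes of the same genotype. In KO, 23.6% of all genes reaching 10 CPM stood 2-fold above oocytes and 17.4% stood 2-fold below, with a median log2 ratio of 0.23; against spike-in oocytes alone these shares were 19.5% and 16.3%. Of 7 members at that level 3 were 2-fold higher and 1 was 2-fold lower in KO 2-cell samples, and H2afv passed the level through the 2-cell pool alone. Against spike-in oocytes H1foo was within 2-fold in KO, at -0.12. H2afz (1.68), H2afv (2.39), H2afx (2.01) and H3f3a (2.36) were 2-fold higher there. In that set H2afx, at most 9.88 CPM in KO oocytes, also passed through the 2-cell pool alone. In WT, 41.1% of genes stood 2-fold above oocytes and 14.3% stood 2-fold below, with a median of 0.64; without WT 2-cell replicate 8 the shares were 43.7% and 16.2%, and against spike-in oocytes 42.1% and 12.8%. Of 7 members 4 were higher and 1 lower in WT 2-cell samples, and H2afx passed the level through the 2-cell pool alone. A member that passed in that way had to be higher in the 2-cell pool. The KO and WT comparisons are given side by side, and the difference between them was not tested.

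H1foo had pooled levels of 5479 CPM in KO 2-cell samples and 11133 CPM in KO oocytes, a log2 ratio of -1.02 (-1.03 to -1.02), with overlapping ranges; it was -1.72 without KO 2-cell replicate 4. In WT the levels were 514 CPM in 2-cell samples and 6725 CPM in oocytes, a log2 ratio of -3.71 (-3.73 to -3.69), and -5.92 without WT 2-cell replicate 8. All 8 WT 2-cell libraries lay below all 14 WT oocytes, beside 5.20% of genes lower without overlap. With spike-in oocytes alone, the set that matches the 2-cell libraries, the ratio was -0.12 in KO and -2.41 in WT. There 6 of 9 KO 2-cell libraries lay below all 7 KO oocytes and 1, replicate 4, above them all.

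H2afz had 222 CPM in KO 2-cell samples and 61.5 CPM in KO oocytes, a log2 ratio of 1.85 (1.81 to 1.89), and 820 CPM in WT 2-cell samples and 50.6 CPM in WT oocytes, a log2 ratio of 4.02 (3.98 to 4.06). H2afv had 31.7 CPM in KO 2-cell samples and 7.93 CPM in KO oocytes, a log2 ratio of 2.00 (1.90 to 2.11), and 231 CPM in WT 2-cell samples and 10.5 CPM in WT oocytes, a log2 ratio of 4.45 (4.37 to 4.54). For both genes every 2-cell library lay above every oocyte of its genotype, as did 5.67% of genes in KO and 18.05% in WT. Against spike-in oocytes H2afz had 1.68 in KO and 3.89 in WT, and H2afv had 2.39 in KO and 4.71 in WT. H2afv was under 10 CPM in the spike-in oocyte pools of both genotypes. It passed the level there through the 2-cell pool alone and so had to be higher. In pooled counts the H2A.Z genes of KO 2-cell samples lay between those of oocytes and those of WT 2-cell samples.

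H2afx had 32.8 CPM in KO 2-cell samples and 15.6 CPM in KO oocytes, a log2 ratio of 1.07 (0.99 to 1.16) that was within 2-fold without KO 2-cell replicate 2 (0.98) or 4 (0.81). In WT it had 34.1 CPM in 2-cell samples and 9.18 CPM in oocytes, a log2 ratio of 1.89 (1.78 to 2.01). Against spike-in oocytes the ratios of H2afx were 2.01 in KO and 2.71 in WT. H2afx was under 10 CPM in the spike-in oocyte pools of both genotypes and so had to be higher there at the 2-cell stage. H3f3a had a log2 ratio of 0.90 (0.88 to 0.93) in KO and 1.67 (1.64 to 1.70) in WT, and against spike-in oocytes 2.36 in KO and 2.35 in WT. There every 2-cell library of both genotypes lay above every oocyte, as did 10.9% of genes in KO and 23.7% in WT. H3f3b, its partner gene, had -0.53 (-0.53 to -0.52) in KO and -0.33 (-0.33 to -0.32) in WT, but 0.29 in KO and 0.10 in WT against spike-in oocytes, so its direction depended on the oocyte libraries. H1f0 had -0.44 (-0.50 to -0.39) in KO and -0.78 (-0.85 to -0.71) in WT, and against spike-in oocytes -0.02 in KO and 0.22 in WT. H2afy stayed under 10 CPM in the pools of both stages.

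**Figure D4:**
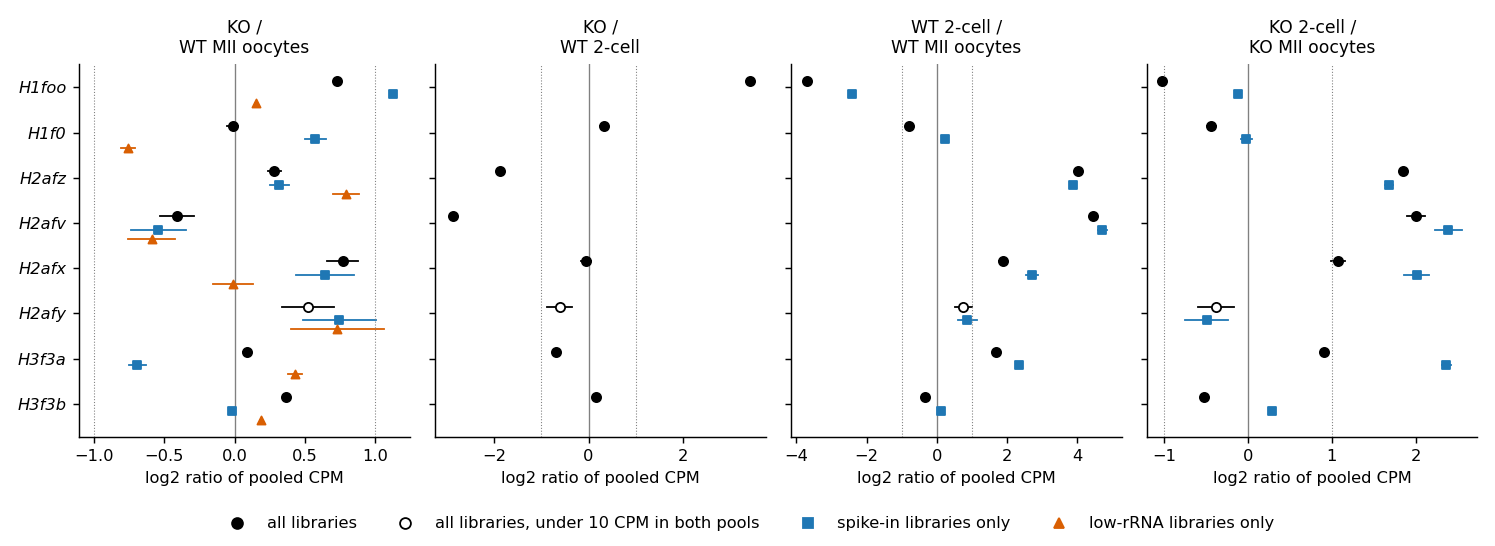
Log2 ratio of pooled CPM for each member in 4 comparisons, with intervals at 95% for counting error only; black points use all libraries (open where both pools are under 10 CPM), blue squares spike-in libraries (not drawn for 2-cell genotypes, which hold no others) and orange triangles low-rRNA libraries, and dotted lines mark 2-fold. Between oocyte genotypes only H1foo in spike-in libraries, at 1.13, passes 2-fold, and H1foo and the H2A.Z genes lie on opposite sides of 0 in the other 3 panels.

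Scaling moved these ratios together. TMM factors over the 50 libraries shifted the median of all genes by 0.29 between 2-cell genotypes, by -0.28 between stages in KO and by -0.57 in WT, and TMM factors of the summed pools by 0.46, -0.64 and -0.91. Of the genes past 2-fold, TMM over libraries put 937 higher and 1908 lower between 2-cell genotypes, 1093 and 1658 between stages in KO, and 2238 and 2136 in WT, against 502 and 2658, 1691 and 1246, and 3507 and 1224 as reported. TMM of the pools put 1457 higher and 1789 lower between 2-cell genotypes, 663 and 2385 between stages in KO, and 1921 and 2921 in WT. H1f0 between stages in WT had -1.35 with TMM and -1.70 with TMM of the pools, past 2-fold in both. Between stages in KO, H2afx had 0.79 with TMM and 0.43 with TMM of the pools, within 2-fold in both. With factors of the pools, H2afx had 0.98 and H3f3a 0.76 between stages in WT, both within 2-fold, and H3f3b had -1.17 in KO and -1.24 in WT.

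The share that 1 gene of a pair takes of their summed counts needs no scaling between libraries. It is a share of counts, not per length, so it is compared across groups and not read as a ratio of molecules. H3f3b took 94.8% of the counts of the 2 H3.3 genes in pooled KO 2-cell samples and 91.0% in WT 2-cell samples, with ranges of 92.9 to 96.7% in KO and 86.9 to 94.2% in WT that overlapped. In oocytes it took 98.0% in KO and 97.6% in WT, with ranges of 83.2 to 99.1% and 86.5 to 99.1% over single oocytes. In the epiblast the shares were 85.3 and 80.6% in IVC samples and 65.6 and 62.8% in E6.5 samples. Epiblast samples are bulk and the others single cells or embryos, so for either pair stage and library type cannot be told apart there. In pooled counts the H3f3a part was highest in the E6.5 epiblast and lowest in oocytes. That order did not hold for the 3 oocytes of the remaining set, where H3f3b took 83.2 and 86.9% in KO and 86.5% in WT, below every 2-cell library.

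H2afv took 12.51% of the counts of the 2 H2A.Z genes in KO 2-cell samples (5.19 to 20.1% over libraries) and 22.0% in WT 2-cell samples (16.9 to 29.6%). In oocytes it took 11.4% in KO (2.46 to 24.9%) and 17.3% in WT (5.80 to 40.4%). It took 9.31 and 9.72% in IVC epiblasts and 6.17 and 7.63% in E6.5 epiblasts, below the pooled shares of all 4 oocyte and 2-cell groups. Near-identical copies and processed pseudogenes exist for the H3.3 and H2A.Z genes, and how reads matching several of them were counted is not given in the sources used here.

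In the epiblast 6 members were higher and 1 was lower in IVC than in E6.5 samples, and H1foo had 0 counts in all 4 samples. Of the 11565 genes tested with edgeR's quasi-likelihood F test, 12.01% were higher and 23.5% lower in IVC at a Benjamini-Hochberg adjusted p under 0.05, and the median log2 fold change of all genes was -0.85. The labels do not say that the 2 samples of a group came from separate animals or cultures, so the p-values measure the spread between these samples, which may be technical. In such bulk samples fewer cells of a type and less RNA per cell cannot be told apart.

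The H2A.Z genes stood furthest up. H2afz had 5755 and 6159 CPM in IVC samples, against 435 and 475 CPM in E6.5 samples, with a log2 fold change of 3.98 (SE 0.0974, edgeR adjusted p = 0.00379). H2afv had 591 and 663 CPM in IVC, against 28.6 and 39.3 CPM in E6.5 samples, with a log2 fold change of 4.49 (SE 0.239, edgeR adjusted p = 0.00455). Replicates of a group lay close together in both genes and far from the other group.

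Both H3.3 genes were higher in IVC samples. H3f3b had 3926 and 3285 CPM in IVC, against 672 and 637 CPM in E6.5 samples, with a log2 fold change of 2.73 (SE 0.158, edgeR adjusted p = 0.00486). H3f3a had 678 and 793 CPM in IVC, against 352 and 377 CPM in E6.5 samples, with a log2 fold change of 1.28 (SE 0.149, edgeR adjusted p = 0.0180). H1f0 had 233 and 265 CPM in IVC, against 61.5 and 74.2 CPM in E6.5 samples, with a log2 fold change of 2.15 (SE 0.244, edgeR adjusted p = 0.0173).

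H2afx was the member lower in IVC, at 3.37 and 20.4 CPM, against 262 and 456 CPM in E6.5 samples, with a log2 fold change of -4.64 (SE 1.06, edgeR adjusted p = 0.0412). H2afy had 87.1 and 88.2 CPM in IVC, against 3.21 and 14.0 CPM in E6.5 samples, with a log2 fold change of 3.64 (SE 0.915, edgeR adjusted p = 0.0490). These 2 calls lay nearest the threshold. With the replicate number as a block the adjusted p of H2afy in edgeR was 0.109, within a range of 0.000139 to 0.401 over all settings tried (DESeq2 included). That of H2afx ranged from 7.67e-08 to 0.125, the highest without the minimum level. H2afz, H2afv and H3f3b passed in every setting tried, while without E6.5 replicate 1, and likewise without E6.5 replicate 2, H1f0, H3f3a and H2afy did not, leaving 3 members higher; without replicate 2 H2afx did not pass either. In those fits the 1 E6.5 sample is taken to vary like the IVC samples.

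The IVC and E6.5 samples also differed in make-up. Rn45s took 0.101 and 0.121% of counts in IVC and 26.2 and 23.3% in E6.5 samples; without it, H2afz had 589 and 620 CPM in E6.5 samples, against 5761 and 6166 CPM in IVC. Rows of histone genes with symbols starting with Hist, 69 in the oocyte and 2-cell table, were also summed. They include Hist1h2aa, which is listed further on among the variants. In IVC they summed to 283 to 360 CPM and in E6.5 samples to 4601 to 8390 CPM, lower in IVC as H2afx was. Markers of epiblast summed to 1683 to 2027 CPM in IVC and 4914 to 5697 CPM in E6.5 samples, with counts for all 10. Trophoblast markers summed to 6392 to 6488 CPM in IVC and 179 to 188 CPM in E6.5 samples, with counts for 7 of 12 in IVC, where Cdx2, Hand1, Ascl2, Prl2c2 and Tpbpa were at 0. Visceral endoderm markers summed to 868 to 1194 CPM in IVC and 203 to 213 CPM in E6.5 samples, with Foxa1 at 0 in IVC. These differences run with the group, so their part in the member values, that of H2afx included, cannot be told apart and was not tested.

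**Figure D5:**
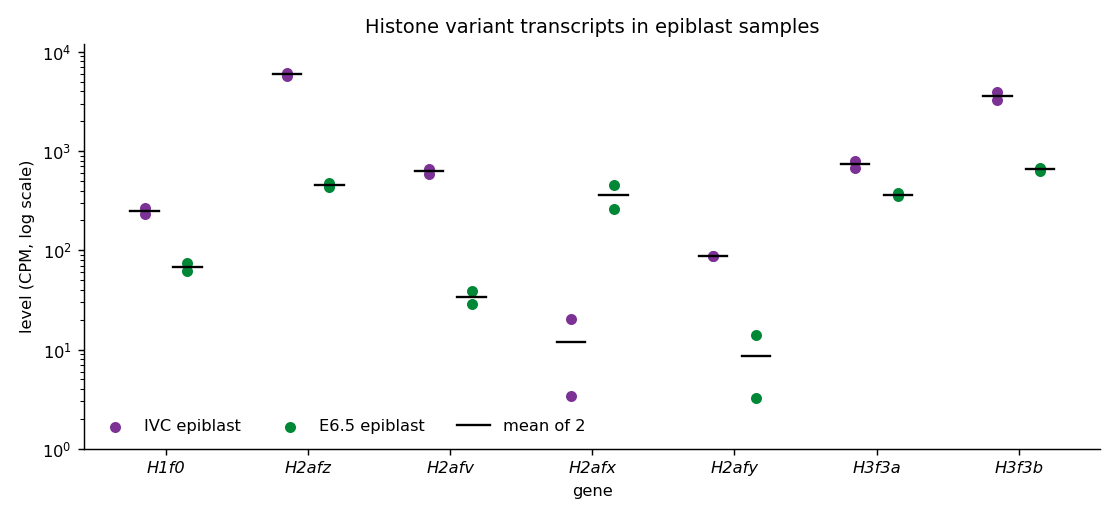
Level in CPM, on a log scale, of the 7 members with counts in the epiblast, IVC left of E6.5; each point is 1 sample and each bar the mean of the 2 samples. IVC lies above E6.5 for 6 members, widest for H2afv and H2afz, and below it for H2afx, whose IVC samples differ from each other (3.37 and 20.4 CPM).

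The partners of these histones were counted in a list of 38 genes for chaperones and remodellers, which carry variants to DNA or exchange them. In KO over WT 2-cell samples 32 of them reached 10 CPM, of which 4 stood 2-fold above WT and 10 stood 2-fold below, beside 5.96% of all genes above and 31.6% below, so that the lower count was near the background. The list had a median log2 ratio of -0.33, beside -0.35 for all genes. Vps72, the H2A.Z-binding subunit of the SRCAP and p400 complexes, had 166 CPM in pooled KO and 36.4 CPM in pooled WT, a log2 ratio of 2.19. Rbbp7, a chaperone of H3 and H4, had 3821 CPM in KO and 1031 CPM in WT, a log2 ratio of 1.89 that was 2.57 without WT replicate 8. Mcm2, a helicase subunit that also binds H3 and H4, had 133 CPM in KO and 59.8 CPM in WT. At the low end Mis18a and Oip5, which prepare centromeres for the variant CENP-A, had log2 ratios of -2.91 and -3.15, and Set, a chaperone that binds core and linker histones, had -2.35. Oip5, at 7.84 CPM in KO and 69.6 CPM in WT, passed the level through the WT pool alone and so had to be lower in KO.

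Between stages in KO, 3 of 31 were higher and 8 lower at the 2-cell stage, beside 23.6% and 17.4% of all genes, with a median of -0.44, beside 0.23 for all genes. Supt16, of the FACT complex, had -2.70 and Atrx, which deposits H3.3 at telomeres and repeats with Daxx, -1.47, while Ruvbl1, an ATPase of the H2A.Z remodellers, had 1.02. That of Ruvbl1 was within 2-fold in other settings, at 0.22 against spike-in oocytes, 0.73 with TMM, 0.98 with DESeq2 size factors and 0.85 without KO 2-cell replicate 7. In WT, 10 of 33 were higher and 11 lower, beside 41.1% and 14.3% of all genes, with a median of 0.12, beside 0.64 for all genes; Oip5 had 4.81, Set 3.93 and Chaf1b, of the assembly factor CAF-1, 3.21, while Rbbp7 had -2.86, Supt16 -2.75 and Vps72 -2.33. Between stages in WT, Oip5 (2.48 CPM in oocytes) and Chaf1b (2.94 CPM in oocytes) passed the level through the 2-cell pool alone and so had to be higher there. Between oocyte genotypes, 1 of 29 was higher (Set, 1.06) and 1 lower (Mis18a, -1.09), beside 2.04% and 2.39% of all genes, and in low-rRNA libraries 0 of 27 were 2-fold apart. In the epiblast 5 of 37 tested were higher and 11 lower in IVC by the edgeR test, beside 12.01% and 23.5% of all genes, with a median of -0.74, beside -0.85 for all genes. Mis18a (3.61), Npm3 (3.06) and Asf1a (3.02), a chaperone of H3.3 and H3.1, were higher. Srcap (-5.74) and Ep400 (-2.95), the ATPases that insert H2A.Z, were lower. Hjurp, the CENP-A chaperone, had 0 counts in both IVC samples. It passed the minimum through the E6.5 samples alone and so had to be lower in IVC. With the replicate block the edgeR adjusted p of Hjurp was 0.319, against 0.0398 without it, and over the settings tried it reached 0.601 for Hjurp, 0.188 for Mis18a and 0.143 for Ep400.

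Of 16 other variant and linker histone genes in the table, most lay under the minimum. H2afj and the centromere histone Cenpa were the 2 at 10 CPM or more in the 2-cell comparison, with 3.09 and 141 CPM in pooled KO, against 31.3 and 415 CPM in pooled WT, log2 ratios of -3.34 and -1.56. Both stood 2-fold below WT, beside 31.6% of all genes. H2afj passed the level through the WT pool alone and so had to be lower in KO. Between oocyte genotypes 0 of 2 were 2-fold apart, beside 2.04% of all genes above WT and 2.39% below. In KO 2-cell samples over oocytes 0 of 2 were higher and 1 lower (Hist1h2aa, -2.60, and -0.62 against spike-in oocytes), beside 23.6% and 17.4% of all genes. In WT 2 of 3 were higher and 1 lower, beside 41.1% and 14.3% of all genes. Of the genes called between stages, H2afj in WT passed through the 2-cell pool alone and Hist1h2aa in KO through the oocyte pool alone, and with TMM of the pools 0 of 4 were higher and 2 lower in WT. In the epiblast 2 of 9 were higher in IVC by the edgeR test (H2afj, 3.56, and Cenpa, 2.43) and 3 lower, among them H1fx with 0 counts in IVC. Beside these stood 12.01% of all genes higher and 23.5% lower. H1fx passed the minimum through the E6.5 samples alone and so had to be lower in IVC. With the replicate block the edgeR adjusted p of H1fx was 0.334, against 0.0412 without it, and over the settings tried it reached 0.601 for H1fx, 0.141 for Cenpa and 0.0528 for H2afj.

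Genes whose levels ran most like each member were ranked by Pearson's r of log2(CPM + 1) over the 50 oocyte and 2-cell libraries, among 6602 genes, as a description: libraries share stage, set and depth. The closest to H1foo were Cnn3 (0.949), Mkln1 (0.944) and Rraga (0.943). For H2afz they were Gabpa (0.958), Wdr77 (0.957) and Psat1 (0.957), and for H2afv Obox6 (0.945), Dkkl1 (0.939) and Mt2 (0.938). For H3f3a they were Mff (0.898), Calm2 (0.855) and Rbm7 (0.849), and for H2afx Ppp1r15b (0.761), Grm2 (0.751) and Tubb2a (0.726). H3f3b ran with Mcmbp (0.941), Nipsnap2 (0.927) and Inpp4a (0.921), but over the 34 spike-in libraries those values were 0.757, 0.482 and 0.407, so this likeness differed between the library sets. H1f0, at most 0.644 with Tmem250-ps, and H2afy, at most 0.533 with Aaas, had no close companion.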

How the data were processed

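RNA of 54 of the 209 samples in the series was used; the other 155 are not analysed here. The oocyte and 2-cell tables hold read counts per gene and per parental allele, and the epiblast tables read counts per gene, all as deposited by the authors. STAR 2.6.0a, HTSeq 0.10.0, featureCounts 2.0.1, Trim Galore 0.6.6, cutadapt 1.15 and build mm9 are named in the submitters' processing notes, without saying which made which table; the labels' protocols describe polyA RNA. How multi-mapping or antisense reads were counted is not given in the sources used here.

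ERCC rows (92) were left out of totals. CPM scale each count to a total of 1000000. For oocyte and 2-cell groups, counts were summed over libraries, and the log2 ratio of the sums' CPM has an exact conditional Poisson interval at 95%; genes that reached 10 CPM in one of the sums were called at 2-fold. Paternal shares have exact Clopper-Pearson intervals and need 50 allele-assigned counts (10 in a single library); 2046 of 244199 values above 0 held more allele counts than total counts, none in the members. Intervals cover counting error only, since reads without molecular identifiers are not independent molecules. Epiblasts were tested with edgeR 4.0.16 (TMM, quasi-likelihood F test, standard error as the fold change over the square root of F), with DESeq2 1.42.0 as an alternative, in R 4.3.3; other steps used Python 3.11.15 and SciPy 1.17.1. The scripts were tested on simulated data. No libraries were duplicates by a chi-square test of their counts.

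The members, the lists, the markers and the library sets were chosen with earlier results of these data known, so a list's direction is not independent evidence. Named list genes were up to 3 each way with the largest called change and 20 CPM or more in the higher group, and likeness names the 3 closest genes with a mean of 10 CPM or more, predicted gene models passed over; 1 gene so named is not reported here. Alternatives were other scalings, no minimum level, single library sets, leaving out each library and, in the epiblast, a replicate block; the remaining oocyte set and TMM of the pools were added after seeing the data. Promoter windows are from RefSeq, GRCm38.p6.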

Additional observations from a re-analysis of the deposited data

Results flagged for a closer look

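Of 31 groups of 4 to 10 libraries examined for a single library far from the rest, 8 held one. The cutoff would flag about 1 in 20 groups of normally spread values. CPM and shares with many values at 0 need not be so spread, and the groups share libraries, so 8 of 31 cannot be set against that rate. In KO 2-cell samples, replicate 4 had 12127 CPM of H1foo, against 874 to 6025 CPM in the other 8, and replicate 3 had 1040 CPM of H2afz, against 108 to 372 CPM. Replicate 3 also had a paternal share of H2afx of 5.26%, against 0 in the others, from 2 counts. Replicate 8 had a paternal share of H3f3b of 17.3%, against 0 to 7.76%, and replicate 7 one of H1foo of 0.140%, against 0 to 0.0529%.

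In WT 2-cell samples, replicate 8 had 1786 CPM of H1foo, against 69.8 to 174 CPM in the other 7, and a paternal share of H2afz of 40.4%, against 56.8 to 70.6%. Replicate 2 had a paternal share of H1foo of 0.766%, against 0 to 0.323%.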

How the results depend on the processing

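The counts of 2-fold members between 2-cell genotypes were 1 higher and 2 lower in KO. They held under every scaling tried, which did not include spike-in scaling, and with each library left out. The size of the H1foo ratio did not hold. Between oocyte genotypes 0 members were higher, but 1 was with medians over libraries, with spike-in libraries alone or with the remaining oocyte set alone. Between stages in KO, 1 member was lower, against 0 with spike-in oocytes and 3 with TMM of the pools. In WT 4 were higher, and 2 with TMM of the pools, and 1 was lower, against 2 with TMM and 3 with TMM of the pools. In the epiblast 1 member was lower, and 0 without the minimum level. For the 38 chaperones and remodellers, TMM of the pools gave 6 lower instead of 10 between 2-cell genotypes, and 0 higher and 17 lower instead of 3 and 8 between stages in KO. The causes were not tested. Leaving out 1 library gave 0 to 1 higher between oocyte genotypes, 2 to 4 higher and 0 to 1 lower between stages in KO, and 3 to 6 higher and 0 to 1 lower in the epiblast. Members with a paternal share of 10% or more remained 2 in KO and 4 in WT with each library left out.

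In the epiblast the fit with the replicate block called 5 members higher and 1 lower, and 893 genes higher and 361 lower, against 1389 and 2717 without it. Deviations of same-numbered samples correlated at 0.00606, so the numbers were not taken to pair the samples. The minimum level, DESeq2 and each of the 4 samples also moved the gene counts, to 965 higher and 631 lower without the minimum, 1889 and 2972 with DESeq2, 2880 and 4997 without IVC replicate 1, 2863 and 5476 without IVC replicate 2, 612 and 125 without E6.5 replicate 1, and 648 and 118 without E6.5 replicate 2. Few H3.3 counts are assigned to an allele, and H2afy lies under 10 CPM before the epiblast, which limits both.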
